A study of Homo sapiens with 13 samples.

Results

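Aminoacyl-tRNA synthetases are the enzymes that join each amino acid to its tRNA, and 36 genes for them were followed by ribosome profiling in MDA-MB-231 cells after exposure to the eIF4A inhibitor Silvestrol or the mTOR inhibitor INK128. The genes were taken by symbol from 24875 symbols in the Silvestrol data and 13121 in the INK128 data. Of the 36, 20 encode cytosolic enzymes and 16 encode enzymes of the mitochondrial matrix. GARS and KARS were counted as cytosolic, although each gene also gives rise to the mitochondrial enzyme for its amino acid. The expression filter was passed by 34 of the 36 with Silvestrol, which are 19 cytosolic and 15 mitochondrial genes of 10507 genes in all, and by 29 with INK128, which are 20 cytosolic and 9 mitochondrial genes of 7102 in all.

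Cells keep separate sets of synthetases for the cytosol and the mitochondrion, and the mitochondrial set is encoded by nuclear genes, translated in the cytosol and then imported. Several cytosolic enzymes, together with the scaffold proteins AIMP1, AIMP2 and EEF1E1, form the multi-synthetase complex. Many cytosolic synthetase genes are targets of ATF4, the transcription factor of the amino acid response, whose own translation rises in that response. eIF4A is the helicase that unwinds 5′ UTRs during initiation. mTOR promotes cap-dependent translation, above all of mRNAs that begin with a 5′ terminal oligopyrimidine tract (TOP mRNAs).

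MDA-MB-231 is a human triple-negative breast cancer cell line, used here without any genetic change. In the Silvestrol experiment, ribosome footprints (RFs) were sequenced in 1 library from untreated cells, 1 from cells exposed to vehicle (DMSO) for 1 h and 1 from cells exposed to 25 nM Silvestrol for that time. Exposures of 2 h were carried out at passage 3 and again at passage 4, giving n = 2 RF libraries for DMSO and for Silvestrol. The mRNA libraries, 1 for DMSO and 1 for Silvestrol, are titled 2 h and labelled passage 3. In the INK128 experiment, cells of passage 3 were given DMSO or 200 nM INK128 for 2 h, and 1 RF library and 1 total RNA library were made for each. Labels disagree with titles in places: a Silvestrol RF library titled 2 h (passage 3) is elsewhere labelled 1 h, and the mRNA library titled DMSO is elsewhere labelled untreated. The deposited control mRNA values carry no treatment name. They were read as DMSO after the title and description of the sample, and the study's account of TE has RFs and mRNA from the same cultures. Every mRNA or TE change with Silvestrol uses them. All cultures came from 1 line, and passages of it are the only replicates, so p-values speak for these cultures only. The tests also draw the spread of each gene in part from all genes.

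RF libraries held between 2.65 M and 31.2 M counted reads (M, mega), with the fewest in Silvestrol at passage 4, and the mRNA libraries held 50.3 M (DMSO) and 24.8 M (Silvestrol). Synthetase genes took between 0.975% and 1.18% of the counted RF reads and 0.497% and 0.546% of the mRNA reads. The cells expressed VIM, CD44 and AXL at no less than 4789, 138 and 85.7 RF RPKM (reads per kilobase and per mega of mapped reads), while ESR1 was at 0 and PGR and CDH1 did not exceed 0.042 and 0.11. ERBB2 and EPCAM reached 4.05 and 9.94 RF RPKM. VARS, for valine, had 0 counted reads in all libraries of the Silvestrol experiment, and VARS2 had 2 reads in 1 library. Both genes lie on chromosome 6 (GRCh37, VARS at chr6:31745295-31763529 and VARS2 at chr6:30881982-30894236), and the authors discarded positions with reads that were not unique, whose part in these counts was not tested. In the INK128 experiment, processed in another way, VARS stood at 37.9 RF FPKM (the same for fragments) and VARS2 at 2.70 with DMSO, so a count of 0 says nothing of their expression.

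Before any drug effect, the cytosolic and mitochondrial sets differed in level. In DMSO at 2 h the cytosolic genes had a median of 166 RF RPKM, from MARS at 60.2 ± 8.5 (SD, n = 2) to TARS at 526 ± 8.2, and the mitochondrial genes had a median of 26.5, from AARS2 at 6.27 ± 0.86 to IARS2 at 61.2 ± 2.3. The median of all genes that passed the filter was 21.6. The ranges of the sets met only at the top of one and the bottom of the other, where IARS2, FARSB (62.7 ± 5.4) and MARS lay within the spread of the passages. TARS, the threonyl enzyme, was followed by SARS for serine (353 ± 33) and GARS for glycine (342 ± 18), which lay within that spread of each other.

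For 14 mitochondrial enzymes the cytosolic enzyme for the same amino acid could be set beside it (EPRS, which charges both glutamate and proline, for EARS2 and PARS2). The cytosolic member had more RFs in all 14 pairs, by a factor of 2.90 (IARS over IARS2) to 19.9 (TARS over TARS2), with a median of 6.55. Its mRNA RPKM was also higher in 14 of 14 pairs, by a median factor of 5.18. Translation efficiency (TE, RF RPKM over mRNA RPKM) was higher for the cytosolic member in 12 of 14 pairs, with a median factor of 1.75, and the exceptions were MARS against MARS2 (0.275) and WARS against WARS2 (0.509). Median TE in DMSO was 2.61 for cytosolic genes, 1.48 for mitochondrial genes and 1.84 for all genes. QARS, the glutaminyl enzyme, combined 115 mRNA RPKM with only 62.2 RF RPKM in the same culture and had the lowest TE of the 34 (0.540). WARS2, the mitochondrial tryptophanyl enzyme, had 4.56 mRNA RPKM and 27.0 RF RPKM and the highest (5.92). mRNA has no replicate, so these TE values carry no error.

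**Figure D1:**
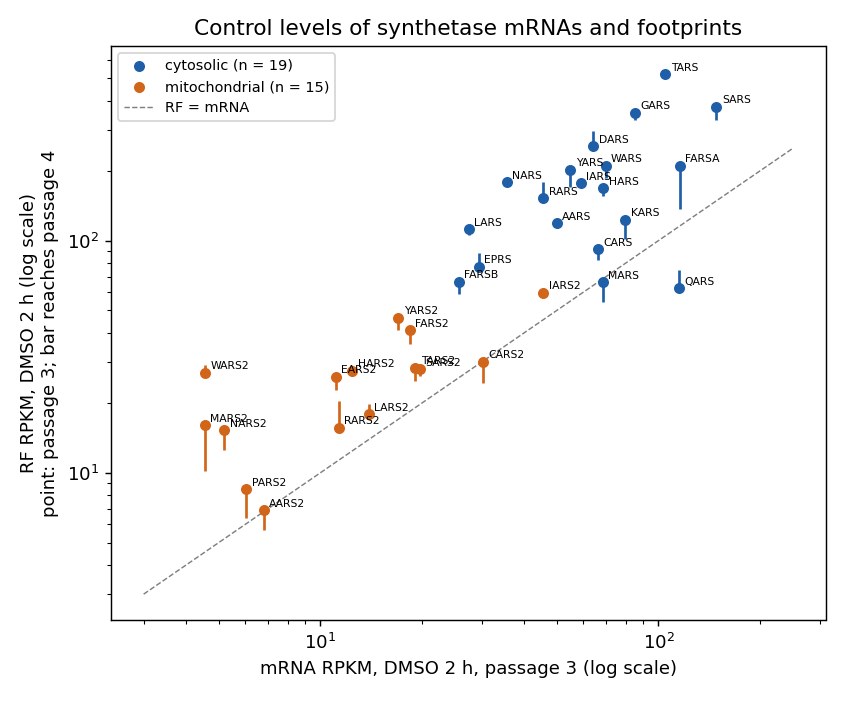
Each point is 1 synthetase gene in DMSO at 2 h, with mRNA RPKM (passage 3) on the x axis and RF RPKM on the y axis, both on log scales; the point is passage 3, the bar reaches the passage 4 value, and the dashed line marks equal values. Cytosolic genes (19, blue) occupy the upper right and mitochondrial genes (15, orange) the lower left. QARS lies farthest below the dashed line, and MARS and CARS2 lie just below it.

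The comparison of Silvestrol with DMSO asks which synthetase mRNAs keep their ribosomes when eIF4A is inhibited. At 2 h 2 of 34 rose in RFs and 0 fell in edgeR's quasi-likelihood test of the 4 libraries (adjusted p under 0.05 over all genes), against 2.22% of all genes that rose and 7.73% that fell. FARSB encodes the beta subunit of the cytosolic phenylalanyl enzyme and lies at chr2:223431618-223520811 on the minus strand of GRCh37. It had 66.5 and 58.9 RF RPKM with DMSO in passages 3 and 4, and 98.6 and 100.3 with Silvestrol. Both Silvestrol cultures lay above both DMSO cultures, a log2 change of 0.78 (SE 0.13, edgeR adjusted p = 0.032). YARS2, the mitochondrial tyrosyl enzyme (chr12:32880424-32908831, minus strand), had 46.4 and 41.1 RF RPKM with DMSO and 80.9 and 65.6 with Silvestrol. Its log2 change was 0.87 (SE 0.19, edgeR adjusted p = 0.049), again with no overlap of the groups. With either Silvestrol library left out, where the DMSO pair alone gives the spread, the same test called 0 of all genes. FARSB then had log2 changes of 0.76 and 0.78 (without passage 4 and without passage 3; edgeR adjusted p = 0.19 and 0.24) and YARS2 of 1.05 and 0.63 (0.14 and 0.32). With an offset for the counted length of each gene, the same 2 rose (1.71% of all genes) and WARS fell (10.2%). That fit put the WARS log2 change at -0.62 (edgeR adjusted p = 0.048). By another tool, DESeq2, 7 of 34 rose (CARS, FARSB, GARS, IARS2, MARS2, WARS2 and YARS2) and 0 fell, against 5.31% and 9.6% of all genes.

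Passage number pairs the cultures, and with passage as a block in edgeR many smaller shifts passed the test: 18 synthetase genes rose and 6 fell, against 25.0% of all genes that rose and 28.1% that fell. With 4 libraries this fit measures little spread gene by gene, so its p-values rest mostly on the spread pooled over all genes. In this paired fit 10 of 15 mitochondrial genes rose and 1 fell, and 8 of 19 cytosolic genes rose and 5 fell. A paired fit that added the 1 h libraries, 6 in all, called 18 higher (24.8% of all genes) and 1 lower, WARS (24.6%). The median log2 RF change without the block was 0.54 for mitochondrial genes, 0.08 for cytosolic genes and -0.01 for all genes. With 1 library left out, the mitochondrial median ranged from 0.41 to 0.55 and the cytosolic from -0.016 to 0.19. Above 0 lay 12 of 15 mitochondrial and 13 of 19 cytosolic genes, beside 5163 of all 10507. In RPKM the median gene had less with Silvestrol, with log2 ratios of -0.17 in passage 3, -0.15 in passage 4 and -0.18 at 1 h, and RPKM pairs below stand against those medians. In RPKM, both Silvestrol cultures exceeded both DMSO cultures for 16 synthetase genes (20.5% of all genes) and fell short of both for 10 (40.1%).

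**Figure D2:**
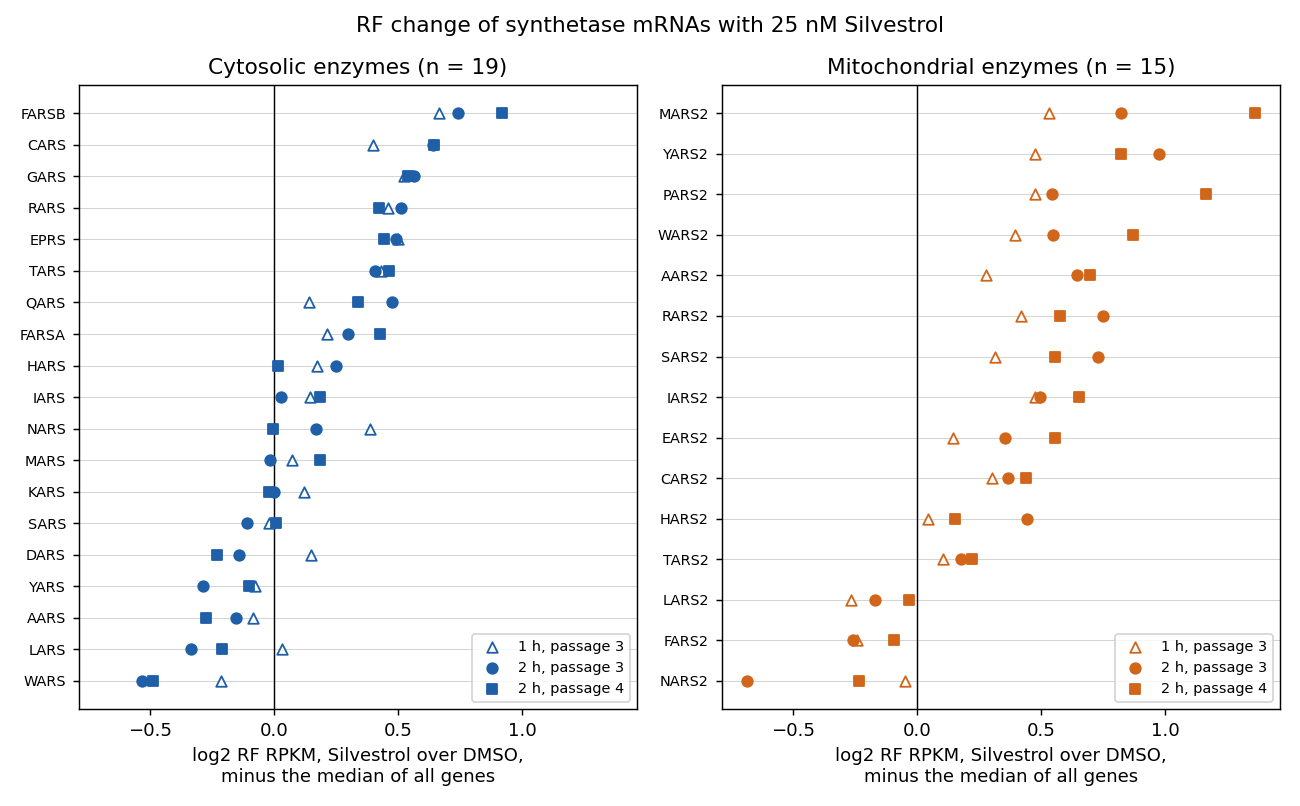
Log2 ratios of RF RPKM (Silvestrol over DMSO, minus the median of all genes, x axis) for each of the 19 cytosolic (left) and 15 mitochondrial (right) genes, ordered by the mean of the passages at 2 h. Triangles are 1 h, circles 2 h at passage 3 and squares 2 h at passage 4; 12 mitochondrial genes lie to the right of the line in every culture, with LARS2, FARS2 and NARS2 to its left.

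Among the mitochondrial enzymes, the methionyl enzyme MARS2 had the highest RF change of the 34. It went from 15.98 and 10.2 RPKM with DMSO to 25.1 and 23.7 with Silvestrol, a log2 change of 0.99 with the block (SE 0.15, adjusted p = 1.4e-10) and 1.01 without it (SE 0.28, adjusted p = 0.080). Its DMSO values differed between passages by more than its Silvestrol values did, and the groups did not overlap. PARS2, for proline, read 8.49 and 6.399 RPKM with DMSO and 10.99 and 12.9 with Silvestrol. WARS2 read 27.0 and 29.2 with DMSO and 35.0 and 48.2 with Silvestrol. Both genes were higher with Silvestrol in each passage and more so in passage 4, where PARS2 rested on 75 and 64 reads.

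SARS2, for serine, had 27.9 and 26.03 RPKM with DMSO and 41.1 and 34.6 with Silvestrol. RARS2, for arginine, had 15.6 and 20.4, then 23.3 and 27.4. AARS2, for alanine, had 6.88 and 5.66, then 9.55 and 8.29. In these 3 genes all Silvestrol cultures lay above all DMSO cultures, and their log2 changes with the block were 0.62, 0.64 and 0.63. IARS2, the isoleucyl enzyme and the mitochondrial gene with the most RFs, had 59.6 and 62.8 RPKM with DMSO and 74.6 and 88.9 with Silvestrol, a log2 change of 0.53 with the block (SE 0.10, adjusted p = 1.6e-07). EARS2 charges glutamate and read 25.97 and 22.7 with DMSO, against 29.5 and 30.05 with Silvestrol. CARS2, for cysteine, was the mildest of the mitochondrial genes that rose in the paired fit, with 30.1 and 24.3 RPKM in DMSO and 34.5 and 29.7 in Silvestrol. Its groups overlapped, although Silvestrol was the higher in each passage.

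NARS2, the asparaginyl enzyme, was the mitochondrial gene that fell in the paired fit. It had 15.2 and 12.6 RPKM with DMSO and 8.39 and 9.65 with Silvestrol, a log2 change of -0.56 with the block (SE 0.18, adjusted p = 0.0054) and -0.52 without it (SE 0.22, adjusted p = 0.19). Of the 34 genes that passed the filter it had the fewest reads in a library, 48 with Silvestrol at passage 4. FARS2, the single-chain phenylalanyl enzyme of mitochondria, read 41.1 and 35.7 with DMSO and 30.5 and 30.2 with Silvestrol, and LARS2, for leucine, read 17.8 and 19.8, then 14.1 and 17.5. Neither passed the test with or without the block (log2 changes of -0.22 and -0.14 without it). HARS2 and TARS2, for histidine and threonine, were at 0.29 and 0.17 without the block and did not pass either. HARS2 overlaps the start of HARS on the opposite strand, and positions under more than 1 transcript were left out of the deposited RPKM.

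Besides FARSB, the cytosolic genes that rose in the paired fit (25.0% of all genes) were CARS, GARS, RARS, EPRS, TARS, QARS and FARSA. CARS, for cysteine, had 91.8 and 82.6 RPKM with DMSO and 127 and 116 with Silvestrol, a log2 change of 0.61 with the block (SE 0.09, adjusted p = 8.1e-10). GARS had 355 and 329 RPKM with DMSO and 466 and 432 with Silvestrol, and its log2 change of 0.52 was alike with and without the block (adjusted p = 1.8e-09 and 0.055). TARS, the most occupied synthetase mRNA, went from 520 and 532 to 611 and 661 RPKM, a log2 change of 0.40 in both fits. In each of these 3 genes the Silvestrol cultures lay above the DMSO cultures in both passages.

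FARSA, the alpha subunit that pairs with FARSB, differed in its spread. It had 210.0 RPKM with DMSO at passage 3 but 136 at passage 4, and 229 and 166 with Silvestrol. The passages were farther apart than the treatments, so the groups overlapped, and the log2 change of 0.32 had an SE of 0.30 without the block and of 0.09 with it (adjusted p = 0.52 and 0.0015). In DMSO the partner subunits stood at 173 ± 52 (FARSA) and 62.7 ± 5.4 RF RPKM (FARSB; SD, n = 2).

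The cytosolic genes that fell in the paired fit (28.1% of all genes) were WARS, LARS, YARS, AARS and DARS, of which WARS alone also fell in the paired fit over 6 libraries. WARS, the tryptophanyl enzyme that interferon induces, had the lowest RF change of the 34 without the block (-0.523, beside -0.518 for NARS2), and NARS2 had the lowest with it. It read 210.0 and 187 RPKM with DMSO and 129 and 120.0 with Silvestrol, a log2 change of -0.52 (SE 0.10, adjusted p = 3.4e-07 with the block; SE 0.14, adjusted p = 0.078 without it). LARS, the leucyl enzyme, read 112 and 106 with DMSO and 78.8 and 82.5 with Silvestrol, and had a log2 change of -0.31 with the block. YARS, for tyrosine, read 202 and 171 with DMSO and 147 and 144 with Silvestrol. AARS, for alanine, read 119 and 114, then 94.7 and 84.8, and DARS, for aspartate, 255 and 297, then 205 and 229. In these genes the Silvestrol cultures lay below the DMSO cultures without overlap, with log2 changes in the paired fit of -0.24 for YARS, -0.25 for AARS and -0.21 for DARS. HARS, IARS, KARS, MARS, NARS and SARS, the remaining 6 that passed the filter, had log2 changes between -0.09 and 0.12 and did not pass in either fit.

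Tryptophan, tyrosine, methionine, alanine and serine gave the widest contrasts between compartments. WARS2 exceeded WARS by 1.201 on the log2 scale, YARS2 exceeded YARS by 1.11, MARS2 exceeded MARS by 0.97, AARS2 exceeded AARS by 0.88 and SARS2 exceeded SARS by 0.71. The mitochondrial enzyme had the higher change in 10 of 14 pairs. The largest contrast the other way was asparagine, where NARS2 was lower than NARS (difference of -0.59).

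Of the 8 enzymes of the multi-synthetase complex, EPRS, QARS and RARS rose and DARS and LARS fell in the paired fit (25.0% and 28.1% of all genes), while IARS, KARS and MARS did not pass. EPRS had 76.9 and 88.0 RPKM with DMSO and 96.0 and 108 with Silvestrol. RARS, for arginine, had 152 and 179, then 193 and 216. QARS had 62.2 and 74.4, then 76.7 and 85.0. All 3 had Silvestrol values above both DMSO values, and their log2 changes with the block were 0.43, 0.44 and 0.38. The median of the 8 was 0.06, and that of the 11 cytosolic enzymes outside the complex was 0.12.

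At 1 h the same treatment had been given for a shorter time to passage 3 cells, with 1 library per treatment and therefore no test. FARSB was past a 1.5-fold change relative to the median of all genes, with 64.5 RPKM in DMSO and 90.1 in Silvestrol, and it was the only synthetase gene above that limit (5.01% of all genes). None was past it downward (14.1% of all genes). The RF ratio was above 0 on the log2 scale at 1 h and in both passages at 2 h for 16 synthetase genes (22.2% of all genes), and below 0 in all of them for 10 (45.9%). WARS was the lowest cytosolic gene at 1 h as well, with 199.5 RPKM in DMSO and 152 in Silvestrol, and MARS2 the highest mitochondrial gene, with 17.0 and 21.7. NARS2, low at 2 h, had 15.8 and 13.4 at 1 h, which relative to the median of all genes is a log2 difference of -0.05.

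Changes of the mRNAs at 2 h ran partly against those of the RFs. Past 1.5-fold relative to the median of all genes, FARSA, EARS2 and TARS2 were lower (13.7% of all genes) and TARS and WARS2 were higher (16.3%), from 1 library per treatment. The number lower became 2 with a pseudocount of 0.5 and 1 with a filter minimum of 5, while the number higher stayed at 2. FARSA mRNA stood at 116 RPKM with DMSO and 78.0 with Silvestrol, EARS2 mRNA at 11.1 and 7.36, and TARS2 mRNA at 19.1 and 13.1. TARS mRNA stood at 105 and 172 RPKM and WARS2 mRNA at 4.56 and 7.66. For TARS and WARS2 the mRNA ratio (log2 0.72 and 0.75) exceeded the RF ratio in passage 3 (0.23 and 0.38). QARS mRNA was at 115 with DMSO and 79.8 with Silvestrol and PARS2 mRNA at 6.04 and 4.20, both just inside the limit. The median log2 mRNA ratio was 0.09 for cytosolic genes, -0.20 for mitochondrial genes and 0.04 for all genes, and 12 of 19 cytosolic and 4 of 15 mitochondrial genes lay above 0, beside 5532 of all 10507.

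**Figure D3:**
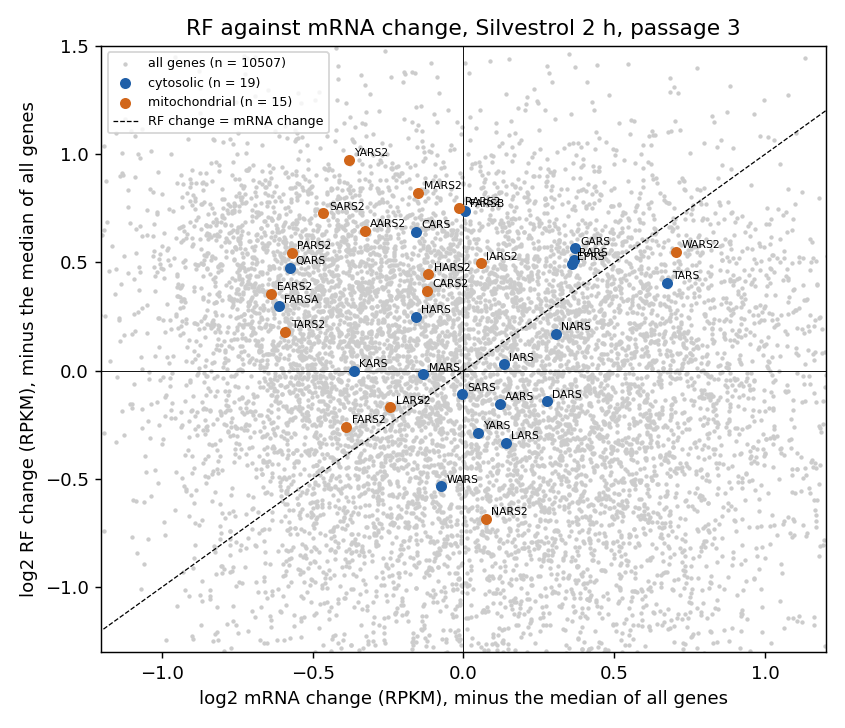
Log2 mRNA change (x axis) against log2 RF change (y axis) with Silvestrol at 2 h in passage 3, from RPKM minus the median of all genes, for 10507 genes (grey; points beyond the axes are not drawn) and for the cytosolic (blue) and mitochondrial (orange) genes. YARS2, SARS2 and PARS2 lie at the upper left, with lower mRNA and higher RFs, while TARS and WARS2 lie to the right, near and below the dashed line of equal change.

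The change in TE combines both, and it lay above 0 for 24 of 34 synthetase genes, beside 4980 of all 10507. The interaction of assay and treatment, fitted in edgeR over 6 libraries, called 0 of all genes (0.0% in each direction) and 0 of 34 synthetase genes, although 2683 of all genes and 9 synthetase genes had an unadjusted p under 0.05. Each treatment has 1 mRNA library, so the SE and p of every TE change, with or without the block, take their spread from the RF libraries alone. DESeq2 called 5.1% of all genes lower and 3.59% higher, with QARS (adjusted p = 0.039) and YARS2 (adjusted p = 0.036) among the latter and no synthetase gene among the former. With passage as a block, edgeR called 15 synthetase genes higher and 3 lower (DARS, LARS and WARS), against 23.0% and 26.5% of all genes. Those higher were 10 mitochondrial genes (AARS2, CARS2, EARS2, IARS2, MARS2, PARS2, RARS2, SARS2, TARS2 and YARS2) and 5 cytosolic genes (CARS, FARSA, FARSB, KARS and QARS). PARS2, YARS2 and MARS2 had the largest TE changes, with log2 values of 1.34 (SE 0.32), 1.28 (SE 0.20) and 1.18 (SE 0.24) in the paired fit. QARS TE went from 0.540 to 0.961 in passage 3, a log2 ratio of 0.83 in RPKM, and the paired edgeR fit over both passages put its log2 change at 0.98 (SE 0.17, adjusted p = 7.6e-06). TARS had RFs that rose in the paired fit, but a TE change of -0.25 that did not pass.

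The z-score of the log2 TE change over all genes, taken from RPKM of passage 3, placed 0 synthetase genes below -1.5 (6.61% of all genes) and 0 above 1.5 (4.72%). They ranged from NARS2 at -0.67 to YARS2 at 1.48, which was just inside the limit. With RFs of passage 4 over the same mRNA libraries, MARS2 (1.69) and PARS2 (1.92) passed 1.5 (4.77% of all genes) and none was below -1.5 (6.74%). The median z-score was 0.88 for mitochondrial genes, 0.22 for cytosolic genes and 0.03 for all genes.

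The synthetase genes were also compared by the length of the annotated 5′ UTR, the stretch that initiating ribosomes scan. It was known for all 34 genes that passed the filter, with a median of 32 nucleotides for mitochondrial genes, 75 for cytosolic genes and 132 for all genes. All 16 synthetase genes with a 5′ UTR under 50 nucleotides had an RF change above 0, beside 1600 of 1840 among all genes of that class. In the paired fit 13 of these 16 rose and 0 fell, beside 1107 that rose and 53 that fell among the 1840. Of the 6 with 150 nucleotides or more, which are DARS, FARS2, HARS2, LARS, LARS2 and NARS2, only HARS2 was above 0, beside 1121 of 4585 among all genes of that class, and 3 of the 6 fell in the paired fit, beside 2257 of the 4585. FARSB and YARS2, which passed the test without the block, have annotated 5′ UTRs of 19 and 23 nucleotides, EARS2 of 7 and WARS2 of 9. Each length is that of a single annotated transcript, whose start can differ from the one used in these cells. NARS2 has the longest, with 376 nucleotides, and WARS has 138.

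Across the 34 genes the log2 RF change and the log10 of the 5′ UTR length had a Pearson r of -0.62 and a Spearman rho of -0.60, beside -0.58 and -0.60 across 10158 genes. Leaving out NARS2 and HARS2, which have the longest 5′ UTRs, gave -0.59 and -0.57. The points share the same libraries and genes are not independent replicates, so these are descriptions. For the TE change the values were -0.63 and -0.63 across the 34 genes, -0.85 and -0.90 across the 19 cytosolic, -0.51 and -0.38 across the 15 mitochondrial and -0.50 and -0.54 across all genes. The mRNA change, which TE also holds, had 0.60 and 0.54 across the cytosolic and 0.0013 and 0.21 across the mitochondrial genes.

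**Figure D4:**
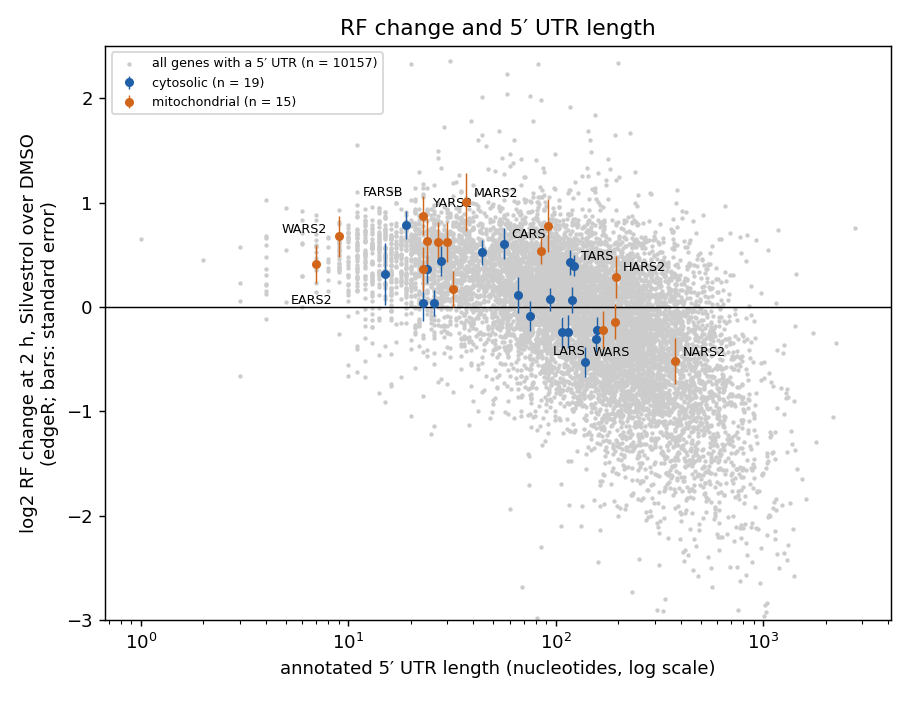
Annotated 5′ UTR length in nucleotides (x axis, log scale) against the log2 RF change at 2 h in edgeR (y axis, bars are standard errors) for all genes (grey; points beyond the axes are not drawn), cytosolic genes (blue) and mitochondrial genes (orange). Synthetase genes under 50 nucleotides lie above the line at 0, and NARS2 at 376 nucleotides lies below it.

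Of 13 other genes of the pathway, 10 passed the filter with Silvestrol. edgeR called 0 of them in either direction, although 4 had an unadjusted p under 0.05 (3291 of all 10507), and DESeq2 called 1 higher (AARSD1; 5.31% of all genes). With the block in edgeR 7 rose (25.0% of all genes) and 0 fell (28.1%). The scaffold AIMP1 had 115 and 88.4 RPKM with DMSO and 148 and 116 with Silvestrol, with mRNA at 12.5 and 26.3. The scaffold EEF1E1 had 389 and 306, then 351 and 278, with mRNA at 35.3 and 65.5. Their mRNA ratios exceeded their RF ratios, and both were lower in TE with the block (log2 changes of -0.45 and -0.58), as were 26.5% of all genes. AIMP2, GATC and AARSD1 were higher in TE with the block (log2 changes of 0.68, 1.22 and 1.17), as were 23.0% of all genes. AIMP2 had 174 and 165, then 214 and 191 RPKM, and rose with the block (log2 change of 0.40). The 7 that rose there include AARSD1, which edits mischarged tRNA (log2 change of 0.76), and MTFMT, which formylates the mitochondrial initiator tRNA (0.54).

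Of 13 cytosolic genes known as targets of ATF4, 12 passed the filter. Their median mRNA ratio was 0.17 on the log2 scale, beside -0.12 for the 7 other cytosolic genes, and their median RF change was 0.05, beside 0.32. The letters TGATGNAA, which C/EBP-ATF response elements carry, were searched on both strands of the 300 bases around each annotated start in RefSeq (GRCh38.p14). They were found in 7 of 30 synthetase genes with an entry (23.3%), against 3.67% of 27305 promoters, and in 6 of 16 cytosolic (37.5%) and 1 of 14 mitochondrial genes (7.14%). A match is a description of the letters and not a bound site. The 6 cytosolic genes with the letters had a median log2 mRNA ratio of 0.17, and the 10 without them of 0.00. The sequences are shown for 6 of the 7 genes, because they mark which promoters share the element (that of NARS, the other cytosolic gene, is not shown), with the matched letters in capitals, each written along the strand that carries the letters:
AARS (chr16:70289675-70289704): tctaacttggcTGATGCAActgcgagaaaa
CARS (chr11:3057407-3057436): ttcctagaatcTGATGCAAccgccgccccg
IARS (chr9:92293692-92293721): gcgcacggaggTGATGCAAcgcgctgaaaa
MARS (chr12:57488053-57488082): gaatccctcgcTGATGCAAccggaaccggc
TARS (chr5:33440956-33440985): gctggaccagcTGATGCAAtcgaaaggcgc
YARS2 (chr12:32756076-32756105): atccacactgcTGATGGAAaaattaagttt
The 5 cytosolic promoters shown have the same 8 letters, while that of YARS2 differs at the free position. In CARS, IARS, MARS and TARS the letters lie within 13 bases of the annotated start, and in AARS and YARS2 farther upstream. TARS mRNA was past the 1.5-fold limit upward, whereas CARS mRNA was at 66.3 RPKM with DMSO and 61.3 with Silvestrol.

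INK128 was compared with DMSO to set mTOR inhibition beside eIF4A inhibition, and here 1 library per group allows no test. The cytosolic synthetase mRNAs lay in a narrow band: 17 of 20 had a log2 RF ratio below 0, with a median of -0.07, beside 0.01 for all genes (3299 of 7102 below 0), and 19 of the 20 lay between -0.17 and 0.06. TARS, again the most occupied, had 174 RF FPKM with DMSO and 159 with INK128. The 9 mitochondrial genes that passed the filter had a median of -0.04 and ranged from HARS2 at -0.22 to IARS2 at 0.30 (22.3 and 27.5 FPKM). Read depth is unknown for FPKM values, so no counting error can be given.

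QARS stood outside this band. It had 59.9 RF FPKM with DMSO and 37.6 with INK128, a log2 ratio of -0.67, at the 3.07th percentile of all genes, and was the only synthetase gene past 1.5-fold relative to the median downward (3.62% of all genes). None was past it upward (3.83%). Total RNA of the median gene stood lower by 1.17 on the log2 scale in the INK128 library, and QARS total RNA, at 4.08 and 1.82 FPKM, followed that median (-1.16). No synthetase gene that passed the filter was past 1.5-fold of it in total RNA (2.42% of all genes lower and 7.97% higher). The z-score of its TE change was -1.24, so no synthetase gene passed -1.5 (5.58% of all genes) or 1.5 (1.75%). The 7102 genes include RNAs that are not translated, such as RNY5 at -4.54, and these count in the SD and the shares. With the median and the median absolute deviation in place of mean and SD, QARS was at -2.38 and IARS2 at 1.59. The share of all genes past the limits was not counted in that setting. By rank, which the scaling leaves as it was, QARS stood at the 6.93th percentile of the TE change and IARS2 at the 94.0th. MARS2, which did not pass the filter, had 3.85 and 1.58 RF FPKM and a log2 total RNA ratio of -2.70.

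QARS was also the only synthetase gene whose annotated start begins with C and at least 4 further pyrimidines, the form of a TOP mRNA. Such a start was found in 1 of 30 synthetase genes with a RefSeq entry (3.33%) and in 4.04% of 27305 promoters. The starts of QARS, of KARS, the next lowest cytosolic gene with INK128, and of IARS2, the highest, are shown from 10 bases before the start, along the gene, with the pyrimidine run in capitals or, where there is none, the annotated base of the start:
QARS (chr3:49104738-49104767): gcctaagtttCTTTTagtttccggtgtctc
KARS (chr16:75647646-75647675): tatcctccttActtttgggtcgggccctcc
IARS2 (chr1:220094122-220094151): gcgccctcttActcggctccccttggtttc
The run in QARS is 5 bases long, and in KARS and IARS2 the annotated start is a purine. Among all genes that passed the INK128 filter and have an entry, 356 had such a start, with a median log2 RF ratio of -0.14 and 19.7% past 1.5-fold downward, and 5222 had none, with a median of 0.02 and 1.70% past it. Annotated starts can miss the start used in these cells, so the letters describe the annotation and nothing more.

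**Figure D5:**
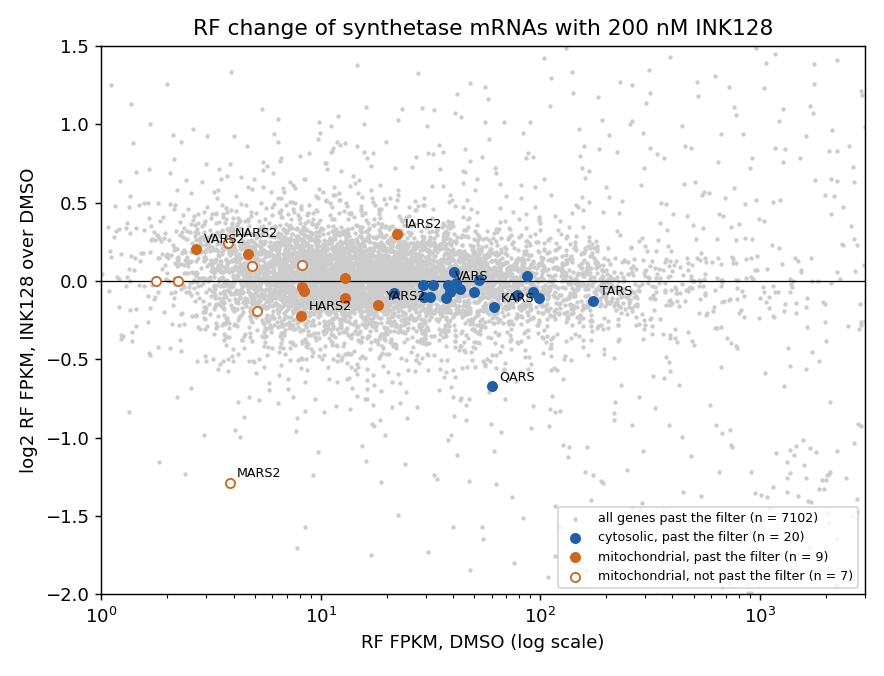
RF FPKM in DMSO (x axis, log scale) against the log2 RF ratio of INK128 over DMSO (y axis) for 7102 genes (grey; points beyond the axes are not drawn), the cytosolic genes (blue) and the mitochondrial genes (orange; open circles did not pass the filter). The cytosolic genes form a band just below 0, from which QARS at -0.67 stands apart.

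Set side by side, QARS had log2 RF ratios of 0.30 and 0.19 with Silvestrol in RPKM at 2 h and of -0.67 with INK128, in experiments that were processed separately. WARS had -0.71 and -0.64 with Silvestrol and -0.11 with INK128, FARSB had 0.57 and 0.77 and then -0.08, and YARS2 had 0.80 and 0.67 and then -0.15. No difference between the drugs was tested, since INK128 has 1 library per group.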

How the data were processed

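MDA-MB-231 cells were profiled in 13 libraries, 9 with Silvestrol and its controls and 4 with INK128 and its control, grouped by their titles. Before alignment with Bowtie to hg19 (GRCh37) and UCSC KnownGene canonical transcripts, the authors trimmed linkers and discarded rRNA, and they deposited the uniquely mapped reads of each transcript as counts. They also deposited RPKM values, in which positions shared by several transcripts, or where reads could map elsewhere, do not count. For INK128 only FPKM values were deposited by the authors, and the program that made them is not given in the sources used here. The submitters' processing notes also name Bowtie2 and CASAVA 1.8.1. The deposited means, TE values, fold changes and z-scores, 15 columns in all, were not used, and 0 other columns of per-sample values were left out.

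Of several entries for a symbol, the one with the highest mean RF RPKM was kept. A gene passed the filter when RF and mRNA RPKM of passage 3 at 2 h were above 0 and their means reached 1 for RFs and 0.3 for mRNA, and likewise for INK128 in FPKM. edgeR 4.0.16 (R 4.3.3; TMM scaling, quasi-likelihood, Benjamini-Hochberg adjustment over all genes, threshold 0.05) tested RF counts and, as the interaction of assay and treatment, TE. DESeq2 1.42.0 was an alternative. With 1 library per group, a value past 1.5-fold relative to the median of all genes was counted, and logs were taken without a pseudocount.

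Replicates 1 and 2 are passages 3 and 4 in the labels. Deviations from the group means had r = 0.714 (DMSO against Silvestrol, across 10507 genes), and paired values use passage as a block. On simulated data with 100 genes per fold size, the RF fit recovered 80 (log2 change of 2) and 15 (log2 change of 1) and called 15 unchanged genes, or 88, 41 and 52 with the block. The TE fit recovered 7 and 0 with 3 unchanged genes called, or 35, 2 and 38 with the block. With the block, both fits called more unchanged genes than genes with a log2 change of 1. The simulated counts held no passage effect, so they cannot show how the block performs on these cultures. 5′ UTR lengths are from MANE Select transcripts of GENCODE 44 on GRCh37.

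Every synthetase gene on the list was accounted for, and some other results are not reported here. Values per library were given for those past the RF test in either fit, past a z-score or 1.5-fold threshold, for the 2 highest and 2 lowest RF changes of each class, and for those with under 50 RF reads in a library. The genes and lists were chosen with earlier results of these data known. Python 3.11.15, pandas 2.3.3, scipy 1.17.1 and matplotlib 3.10.9 were used.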

Additional observations from a re-analysis of the deposited data

Results flagged for a closer look

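For 5 synthetase genes the log2 RF ratio of Silvestrol over DMSO at 1 h had the opposite sign to that of both passages at 2 h. The difference between the times was not tested, since 1 h has 1 library per treatment. NARS, for asparagine, was at 0.20 at 1 h and at -0.0014 and -0.15 at 2 h. QARS was at -0.045, then at 0.30 and 0.19. EARS2 was at -0.038, then at 0.18 and 0.41. HARS2 was at -0.14, then at 0.27 and 0.0033. TARS2 was at -0.082, then at 0.0059 and 0.07. The median of all genes was -0.18 at 1 h, and relative to the median of each comparison QARS, EARS2, HARS2 and TARS2 were above 0 at both times.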

How the results depend on the processing

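Of the RF calls among synthetase genes (2 higher, 0 lower), FARSB alone (1) was higher with filterByExpr or RLE scaling, 7 were higher with DESeq2, and 1 was lower with the counted length offset. The replicate block gave 18 higher and 6 lower, and over 6 RF libraries 18 and 1. For all genes (233 higher, 812 lower) the block gave 2628 and 2956, the block over 6 libraries 2609 and 2581, and DESeq2 558 higher. The cytosolic RF median of 0.08 became 0.0072 with the length offset, 0.11 with DESeq2 or RLE and 0.16 with the block over 6 libraries, and the mitochondrial 0.54 became 0.47 with the length offset. With that offset KARS (-0.11), MARS (-0.028) and NARS (-0.018) changed sign. TE calls (0 in each direction) became 2 higher with DESeq2 and 15 higher and 3 lower with the block, and for all genes 377 higher and 536 lower with DESeq2, 3 lower with filterByExpr, and 2417 and 2789 with the block. The cytosolic TE median of 0.10 became 0.20 with DESeq2 or RLE and 0.13 with filterByExpr, and the mitochondrial 0.67 became 0.77 with DESeq2. TE changed sign for IARS (0.084 with DESeq2 or RLE, 0.014 with filterByExpr), SARS (0.052 with DESeq2 or RLE) and WARS2 (-0.021 with the block). Silvestrol z-scores above 1.5 numbered 2 with RFs of passage 4 and 1 (YARS2) with a pseudocount of 0.5 or with median and MAD. With INK128, median and MAD put 1 below (QARS) and 1 above (IARS2). Shares of all genes past the limits were not counted with a pseudocount or with median and MAD. A minimum of 5 left 1 mRNA lower past 1.5-fold, and for INK128 it left no synthetase gene and so no value. The cause of these shifts was not tested. Leaving out 1 library, RF calls ranged from 0 to 3 higher and 0 to 0 lower (all genes 0 to 276 and 0 to 918), RF medians from -0.016 to 0.19 (cytosolic) and 0.41 to 0.55 (mitochondrial), TE calls from 0 to 2 higher and 0 to 0 lower (all genes 0 to 349 and 0 to 632), and TE medians from 0.053 to 0.13 and 0.68 to 0.76. Without either Silvestrol library 0 genes passed the RF test, and without DMSO replicate 2 YARS2 did not. RF changes then ranged from -0.016 to 0.71 (FARSA), -0.10 to 0.28 (HARS), -0.016 to 0.055 (KARS), -0.13 to 0.23 (MARS), -0.013 to 0.12 (NARS) and -0.21 to 0.048 (SARS), and TE changes from -0.027 to 0.046 (IARS), -0.16 to 0.11 (SARS) and -0.098 to 0.20 (WARS2). The calls of synthetase genes that the replicate block changed are named above, and it changed no other of them. A Silvestrol library of 2.65 M reads and single mRNA, 1 h and INK128 libraries limit precision.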
